A study of Mus musculus with 52 samples.

Results

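miR-187 is a microRNA whose hairpin gives 2 mature arms, mmu-miR-187-3p and mmu-miR-187-5p (below without the prefix for mouse), and both arms were followed here by name among the 1900 mature miRNAs counted in mouse hippocampus. The pair was chosen from these data because it stood higher in the dentate gyrus (DG) than in the cornu ammonis (CA) and lower after environmental enrichment. Its levels in those comparisons are therefore given as a description and carry no test. In the GRCm38 annotation the hairpin gene Mir187 lies on chr18:24429110-24429170, on the minus strand, and is 61 bases long. It overlaps 0 annotated genes, so it is intergenic. Its nearest neighbours are the lincRNA AC131109.1 at a distance of 84479 bases and the protein-coding gene 2700062C07Rik at 41679 bases.

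The libraries came from C57B/6JRj mice of 20 weeks of age, with no other strain, allele or agent named in the labels. Mice had stayed in the home cage (HC) or in an enriched cage (EE), which offers more space, objects and stimulation, for 2 or 10 weeks, and CA and DG were dissected apart. The 52 libraries form 8 groups, named so that 2wEE_DG is the dentate gyrus after 2 weeks of enrichment. CA has 27 of them, with n = 6 for 2wHC_CA, n = 7 for 2wEE_CA, n = 6 for 10wHC_CA and n = 8 for 10wEE_CA. DG has 25, with n = 6 for 2wHC_DG, n = 5 for 2wEE_DG, n = 6 for 10wHC_DG and n = 8 for 10wEE_DG. Nothing in the labels ties a library to an animal, so the p-values below speak only of the spread between libraries, part of which may be technical.

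A miRNA hairpin is cut into a short duplex, and either strand can be loaded into an Argonaute protein, which it guides to messenger RNAs that pair with its seed, bases 2 to 8 of the mature strand. Granule cells, some of them born in adulthood, fill the dentate gyrus, and pyramidal cells fill the CA fields. Outside the brain, miR-187 is known from human monocytes, where it is induced by interleukin-10 and represses inflammatory cytokines.

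Among 432 other miRNAs with a mean of at least 10 CPM (miRNA counts scaled to the total miRNA count of a library), the miRNAs below were among those that ran most like miR-187-3p. They are shown because the likeness results further down turn on them. Over all libraries, miR-181d-5p, miR-344d-3-5p and miR-344c-3p came next after miR-187-5p and miR-497-5p, and let-7b-5p and let-7i-5p were most alike once group means were taken out. The mature sequences are from RefSeq for GRCm38.p6, 5′ to 3′, and capitals mark the seed.
miR-181d-5p, chr8:84178759-84178781, minus strand: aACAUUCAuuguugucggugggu
miR-344d-3-5p, chr7:61726296-61726318, minus strand: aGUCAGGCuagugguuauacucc
miR-344c-3p, chr7:61837323-61837345, minus strand: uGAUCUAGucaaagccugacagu
let-7b-5p, chr15:85707325-85707346, plus strand: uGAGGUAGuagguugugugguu
let-7i-5p, chr10:122985698-122985719, minus strand: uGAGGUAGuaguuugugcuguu
let-7b-5p and let-7i-5p share their seed, and the other 3 have seeds of their own. miR-497-5p, also among the most alike, is named only.

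Total miRNA counts ran from 1117213 to 3159957 in DG and from 480792 to 6706855 in CA. 10wEE_CA library 3 was the shallowest. It stood at 45.5 on the leading principal component of the CA libraries, which held 66.5% of the variance, against -2.72 to -0.400 for the other 26. Most results that include it are given with and without it. A floor of 3 counts corresponded to 6.24 CPM in that library and to 0.447 to 2.69 CPM in the others, and intervals and floors cover counting error only. The neuron-enriched miRNA list had 6 of 6 members in the files, but miR-124-3p, a defining neuronal miRNA, held only 57 counts in all and was at 0 in 23 of 52 libraries, so the list rests on the other 5. The oligodendrocyte list (4 of 4 in the files, with miR-219a-5p at 1 count in all) summed to group means of 6897 to 8253 CPM in CA and 2356 to 2779 CPM in DG. No marker list for granule or pyramidal cells was used. In dissected tissue, fewer cells of a type and less RNA per cell cannot be told apart.

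miR-187-3p was an abundant miRNA in the dentate gyrus and a middling one in CA. In CA its lowest, median and highest levels were 196, 231 and 288 CPM in 2wHC_CA. They were 142, 172 and 210 CPM in 2wEE_CA. They were 160, 219 and 249.6 CPM in 10wHC_CA. In these CA groups the home cage libraries stood mostly above the enriched ones. In 10wEE_CA they were 41.6, 166 and 194 CPM. Without 10wEE_CA library 3, the lowest of that group was 156 CPM, so the low end was that library alone.

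In DG, miR-187-3p had lowest, median and highest levels of 1003, 1174 and 1484 CPM in 2wHC_DG. The 5 libraries of 2wEE_DG held 1024, 1099.5, 1117, 1281 and 1067 CPM. In 10wHC_DG the levels were 905, 1254 and 1652 CPM. The home cage groups had the wider spread and the enriched libraries lay inside it or near its lower end. In 10wEE_DG they were 892, 1152 and 1350.2 CPM. By mean CPM, miR-187-3p stood at rank 75 to 79 of 1900 in the DG groups and at rank 174 to 206 in the CA groups. Without library 3 the CA ranks ran from 174 to 198. Mature miRNAs are of nearly equal length, so these ranks need no correction for length. Reads that matched several places entered no count, so miRNAs made from several hairpins can be undercounted. The ranks of miR-187-3p can therefore lie too near the top.

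miR-187-5p, the less abundant arm, followed the same order of regions. Its lowest, median and highest levels in CA were 9.76, 11.4 and 16.5 CPM in 2wHC_CA. They were 7.01, 8.09 and 9.31 CPM in 2wEE_CA. They were 9.04, 10.5 and 13.8 CPM in 10wHC_CA. The groups at 2 weeks did not overlap, but their nearest libraries, at 9.31 and 9.76 CPM, lay within counting error of each other. In 10wEE_CA they were 2.08, 8.78 and 10.4 CPM, or 6.62, 8.94 and 10.4 CPM without library 3. That library held 1 count of this arm, 2.08 CPM with an exact 95% binomial interval of 0.0527 to 11.6 CPM, which is under its floor. For the 3p arm it held 20 counts, 41.6 CPM with an interval of 25.4 to 64.2 CPM, so its level was below that of the other libraries beyond counting error.

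In DG, miR-187-5p had lowest, median and highest levels of 65.8, 77.4 and 81.6 CPM in 2wHC_DG. The 5 libraries of 2wEE_DG held 44.3, 67.1, 73.1, 63.8 and 38.5 CPM. In 10wHC_DG the levels were 47.7, 57.1 and 73.9 CPM. The 2-week home cage group was the highest of them. In 10wEE_DG they were 46.3, 54.2 and 65.5 CPM. The DG levels of this arm rest on 43 to 220 counts per library and the CA levels, without library 3, on 25 to 72 counts, against 1192 to 3343 and 507 to 1519 counts for the 3p arm. The 5p levels are the less precise.

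**Figure D1:**
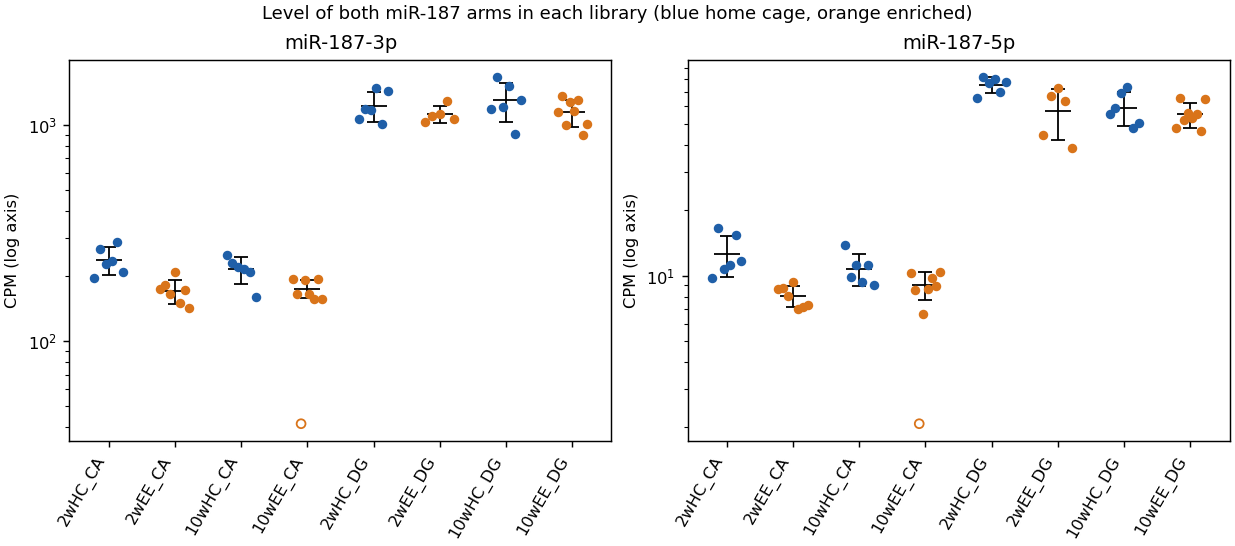
Level of miR-187-3p (left) and miR-187-5p (right) in each library, in CPM on a log axis, by group. Each point is a library (blue home cage, orange enriched), the black marks are the mean ± SD without 10wEE_CA library 3, and the open circle is that library. Every DG library stands above every CA library for both arms.

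Over all groups, miR-187-3p averaged 1192 ± 192 CPM (SD, n = 25) in DG and 191 ± 47.4 CPM (SD, n = 27) in CA, or 197 ± 37.4 CPM (SD, n = 26) without library 3. The highest CA library held 288 CPM and the lowest DG library 892 CPM. The 5p arm averaged 61.4 ± 12.2 CPM (SD, n = 25) in DG and 9.67 ± 2.80 CPM (SD, n = 27) in CA, or 9.97 ± 2.40 CPM (SD, n = 26) without library 3. Its highest CA library held 16.5 CPM and its lowest DG library 38.5 CPM. So every DG library stood above every CA library for either arm, as was the case for 40 of 593 miRNAs tested (6.75%). Nothing is read from that count, since the regional difference chose the pair.

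On the edgeR scale, the log2 fold change of DG against CA was 2.59 ± 0.09 (SE) for miR-187-3p and 2.60 ± 0.07 for miR-187-5p. The fold was 6.04 for the 3p arm and 6.06 for the 5p arm. Without library 3 the log2 fold changes were 2.60 ± 0.06 and 2.63 ± 0.07. By this fold change, the 5p arm stood at rank 2 and the 3p arm at rank 3 of 593, behind miR-184-3p, a miRNA known to promote neural stem cell proliferation, at 3.28. In that comparison 36.1% of miRNAs were called higher in DG and 41.7% lower (edgeR quasi-likelihood test, adjusted p under 0.05), or 38.9% and 40.6% without library 3.

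The gap between the regions was present at both times and in both kinds of housing. For miR-187-3p the ratio of mean CPM, DG to CA, was 5.15 in 2wHC, 6.55 in 2wEE, 6.04 in 10wHC and 7.21 in 10wEE. The last became 6.53 without library 3. For miR-187-5p it was 6.01 in 2wHC, 7.14 in 2wEE, 5.52 in 10wHC and 6.76 in 10wEE, or 6.11 without library 3. Within each housing and time the ratio was higher in the enriched than in the home cage groups, which restates that the levels were lower after enrichment in CA by the larger share. These differences between ratios were not tested, because the pair was chosen on them.

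Ordered by mean level, with library 3 left out, miR-187-3p ran 10wHC_DG, 2wHC_DG, 10wEE_DG, 2wEE_DG, 2wHC_CA, 10wHC_CA, 10wEE_CA, 2wEE_CA. Only 2 steps between neighbours exceeded the larger of their SDs, namely 881 CPM between 2wEE_DG and 2wHC_CA and 39.6 CPM between 10wHC_CA and 10wEE_CA. With library 3, 10wEE_CA came last at 158 ± 49.7 CPM (SD, n = 8), below 2wEE_CA. For miR-187-5p the order was 2wHC_DG, 10wHC_DG, 2wEE_DG, 10wEE_DG, 2wHC_CA, 10wHC_CA, 10wEE_CA, 2wEE_CA. Here the steps over the larger SD were 16.1 CPM between 2wHC_DG and 10wHC_DG and 42.6 CPM between 10wEE_DG and 2wHC_CA. In both orders the home cage groups stood above the enriched groups within each region.

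Enrichment against home cage was described next, at each time in each region. In CA after 2 weeks, miR-187-3p averaged 171 ± 22.1 CPM (SD, n = 7) with enrichment and 237 ± 34.8 CPM (SD, n = 6) in the home cage, 28.01% lower. All 7 enriched libraries lay below the home cage mean and 6 of 7 below every home cage library. miR-187-5p averaged 8.03 ± 0.897 CPM (SD, n = 7) against 12.5 ± 2.74 CPM (SD, n = 6), 35.9% lower. All 7 enriched libraries lay below every home cage library, and this arm was the only 1 of 581 miRNAs with such a split (0.172%). That share is this arm itself. The pair was chosen for lower levels after enrichment, so nothing is read from the split. The log2 fold changes were -0.43 ± 0.18 (SE) for the 3p arm and -0.57 ± 0.15 for the 5p arm. Without 10wEE_CA library 3, which enters through the shared estimate of the spread, they were -0.43 ± 0.10 and -0.57 ± 0.14. Counted from the most negative, the arms stood at ranks 8 and 4 of 581. Lower calls made up 0.0% of the 581 miRNAs (0.345% of 580 without library 3). The lower calls without library 3 were the 2 arms of miR-187 themselves, so that share is no background for them. The pair was chosen on this difference, so nothing is read from those calls. With all libraries, 0 miRNAs passed edgeR's adjusted threshold in this comparison, 35 had an unadjusted p under 0.05, and DESeq2 called 1.

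In CA after 10 weeks, miR-187-3p averaged 158 ± 49.7 CPM (SD, n = 8) with enrichment and 214 ± 29.97 CPM (SD, n = 6) in the home cage, 26.2% lower. Without library 3 the enriched mean was 175 ± 17.3 CPM (SD, n = 7), 18.5% lower. Then 7 of 7 enriched libraries lay below the home cage mean and 2 of 7 below every home cage library. miR-187-5p averaged 8.16 ± 2.74 CPM (SD, n = 8) against 10.7 ± 1.77 CPM (SD, n = 6), 24.01% lower. Without library 3 its enriched mean was 9.03 ± 1.30 CPM (SD, n = 7), 15.9% lower, with 7 of 7 libraries below the home cage mean and 4 of 7 below every home cage library. The groups overlapped for both arms, while 0.172% of miRNAs had every enriched library below every home cage library, or 0.516% without library 3. The log2 fold changes were -0.40 ± 0.18 (SE) for the 3p arm and -0.27 ± 0.15 for the 5p arm, and without library 3 they were -0.27 ± 0.10 and -0.23 ± 0.14. Lower calls made up 0.0% of 581 miRNAs (0.172% of 580 without library 3). In total 0 miRNAs passed edgeR's adjusted threshold, 30 had an unadjusted p under 0.05, and DESeq2 called 0.

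The summed choroid plexus and ependyma markers were higher on average in enriched CA, but their members did not move together. The choroid plexus and ependyma list (8 of 8 in the files, 0 of them at 0 in any CA group) summed to 10472 CPM in 2wHC_CA (9106 to 12259.6) and 13068 CPM in 2wEE_CA (10216 to 17152). At 10 weeks the sums were 10408 CPM in 10wHC_CA (7925 to 12829.6) and 12879 CPM in 10wEE_CA without library 3 (8536 to 19431). In CA the sum is mostly miR-204-5p, with a mean of 5982 CPM, and miR-34c-5p, with 5364 CPM. After 2 weeks, without library 3, the log2 fold changes with enrichment were 0.22 for miR-204-5p, 0.53 for miR-34c-5p and 0.57 for miR-34b-5p, but -0.63 for miR-200b-3p, -0.51 for miR-429-3p and -0.36 for miR-200a-3p. The neuron list (6 of 6 in the files) summed to 27208 CPM in 2wHC_CA (25746 to 28469.9) and 24605 CPM in 2wEE_CA (21036 to 27522). In CA this sum is mostly miR-128-3p, with a mean of 16678 CPM. Its members did not move together, with log2 fold changes after 2 weeks, without library 3, of -0.22 for miR-128-3p and 0.33 for miR-132-3p. At 10 weeks the neuron sums were 27976 CPM in 10wHC_CA (25448 to 29475.5) and 27617 CPM in 10wEE_CA without library 3 (26447 to 29035.5). The ranges overlapped in each of these. The part of these cell types in the lower miR-187 levels was not tested.

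**Figure D2:**
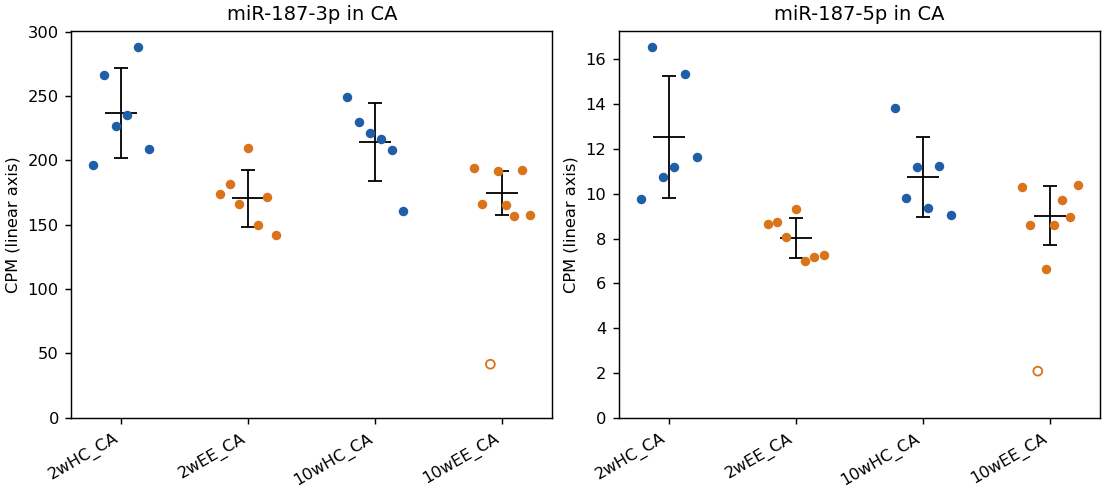
Level of miR-187-3p (left) and miR-187-5p (right) in the CA libraries, in CPM on a linear axis from 0. Points are libraries (blue home cage, orange enriched), black marks are the mean ± SD without 10wEE_CA library 3, and the open circle is that library. All 7 libraries of 2wEE_CA stand below every 2wHC_CA library for the 5p arm, by a gap within counting error.

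In DG the differences with enrichment were smaller for the 3p arm. After 2 weeks miR-187-3p averaged 1118 ± 98.1 CPM (SD, n = 5) with enrichment and 1222 ± 196 CPM (SD, n = 6) in the home cage, 8.49% lower. Of the enriched libraries, 4 of 5 lay below the home cage mean and 0 below every home cage library. miR-187-5p averaged 57.4 ± 15.1 CPM (SD, n = 5) against 75.4 ± 6.27 CPM (SD, n = 6), 23.9% lower. All 5 enriched libraries lay below the home cage mean and 3 of 5 below every home cage library, libraries 1, 4 and 5. The log2 fold changes were -0.14 ± 0.14 (SE) for the 3p arm and -0.40 ± 0.15 for the 5p arm. In this comparison 0.0% of 525 miRNAs were called lower and 0.571% higher, and 0.19% had every enriched library below every home cage library.

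After 10 weeks in DG, miR-187-3p averaged 1141 ± 164 CPM (SD, n = 8) with enrichment and 1294 ± 263 CPM (SD, n = 6) in the home cage, 11.8% lower. miR-187-5p averaged 55.1 ± 7.15 CPM (SD, n = 8) against 59.3 ± 10.4 CPM (SD, n = 6), 6.93% lower. For either arm 6 of 8 enriched libraries lay below the home cage mean, and the differences were smaller than the SD of each group. The log2 fold changes were -0.15 ± 0.12 (SE) for the 3p arm and -0.07 ± 0.13 for the 5p arm. Counted from the most negative they stood at ranks 97 and 160 of 525, where 0.19% of miRNAs were called lower. Both arms thus had negative values in all 4 enrichment comparisons. The CA and DG values were not tested against each other.

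**Figure D3:**
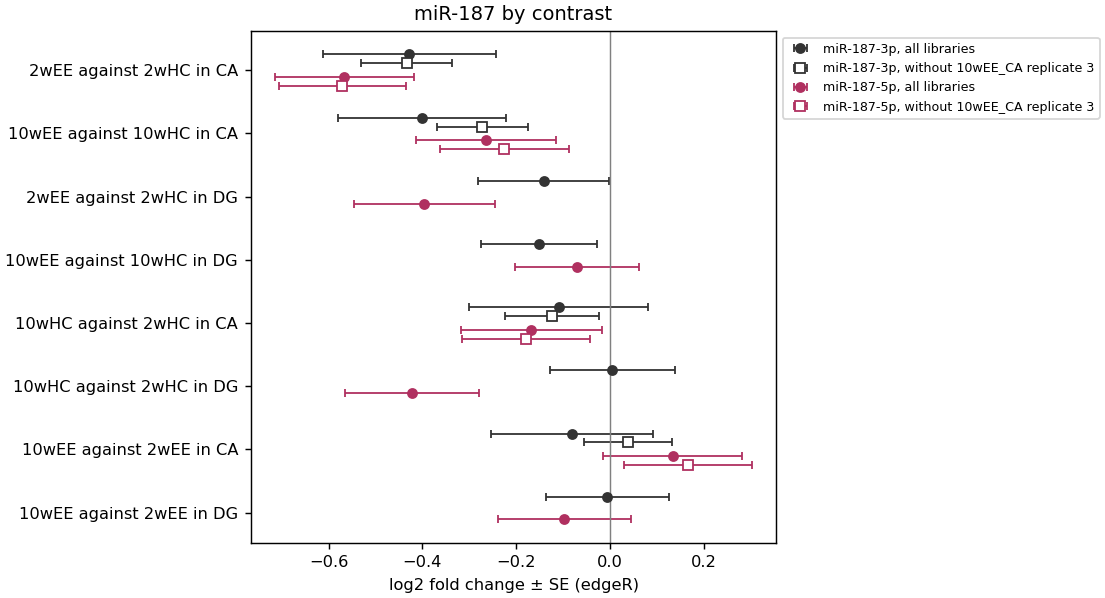
edgeR log2 fold change ± SE of miR-187-3p (dark) and miR-187-5p (red) in each comparison of housing or time. Filled circles use all libraries and open squares leave out 10wEE_CA library 3. The 4 enrichment comparisons at the top all lie below 0. Among the comparisons of times below them, only the 5p arm in home cage DG, at -0.42, passed the test. That test used groups that also chose the pair.

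The time in a housing was not among the contrasts that chose the pair, although it uses the same groups. It was tested with edgeR's quasi-likelihood test with Benjamini-Hochberg adjustment over all miRNAs. All mice were 20 weeks old, and the libraries of the times also differed otherwise. Reads assigned to no feature made up 3.81 to 4.45% of reads in 2-week DG libraries and 4.88 to 6.34% in 10-week ones. In CA the shares were 3.37 to 3.96% and 4.28 to 4.78%. Time in a housing and this difference between libraries cannot be told apart. In the home cage dentate gyrus, miR-187-5p was lower at 10 than at 2 weeks, while miR-187-3p did not pass the test. The 5p arm went from 75.4 ± 6.27 CPM (SD, n = 6) in 2wHC_DG to 59.3 ± 10.4 CPM (SD, n = 6) in 10wHC_DG, 21.4% lower. All 6 libraries of 10wHC_DG lay below the 2wHC_DG mean and 4 of 6 below every 2wHC_DG library. Its log2 fold change was -0.42 ± 0.14 (SE) with an edgeR adjusted p of 0.0443. In this comparison 8.38% of 525 miRNAs were called lower and 7.62% higher. The 3p arm had a log2 fold change of 0.0048 ± 0.13 (SE) with an edgeR adjusted p of 0.984. The pair was chosen for lower levels after enrichment, a choice that used both of these home cage groups. For this arm 2wHC_DG was the highest of all groups. The 5p test is therefore not free of that choice. The 5p value is also close to the threshold. It was lost when 2wHC_DG library 2, 3, 4 or 6 or 10wHC_DG library 1, 2, 5 or 6 was left out, with log2 fold changes of -0.50 to -0.36 over all single omissions and edgeR adjusted p of up to 0.118. It was also lost on DESeq2 size factors in edgeR (-0.41, adjusted p 0.05002), without the filter on low counts (-0.41, adjusted p 0.111) and with only these groups in the edgeR fit (-0.42, adjusted p 0.0515).

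In the same comparison the astroglia list (5 of 5 in the files, 0 at 0) summed to 23787 CPM in 2wHC_DG (20120.4 to 26521.5) and 30113.5 CPM in 10wHC_DG (26501 to 33187). The choroid plexus and ependyma list (8 of 8 in the files, 0 at 0) summed to 18369 CPM in 2wHC_DG (15604 to 21543) and 15808 CPM in 10wHC_DG (13586 to 17069). In DG this sum is nearly all miR-204-5p, with a mean of 15694 CPM, which is itself among the dentate-high miRNAs. The other members with over 10 CPM in CA were lower in DG, such as miR-34c-5p at 1039 against 5364 CPM and miR-200b-3p at 6.04 against 97.6 CPM, so the sum in DG follows 1 miRNA rather than the list. The astroglia sum in DG is likewise nearly all miR-29a-3p, with a mean of 25415 CPM. The astroglia ranges touched only at their ends. The part of these markers in the 5p result was not tested.

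In the enriched dentate gyrus neither arm passed the test between the times. The log2 fold change of 10wEE_DG against 2wEE_DG was -0.0060 ± 0.13 (SE) for miR-187-3p (edgeR adjusted p 0.980) and -0.10 ± 0.14 for miR-187-5p (edgeR adjusted p 0.721), where 5.33% of 525 miRNAs were called lower and 4.57% higher. The home cage CA gave -0.11 ± 0.19 for the 3p arm (edgeR adjusted p 0.971) and -0.17 ± 0.15 for the 5p arm (edgeR adjusted p 0.882). Without library 3 these were -0.12 ± 0.10 (edgeR adjusted p 0.541) and -0.18 ± 0.14 (edgeR adjusted p 0.520). In that comparison 0.0% of 581 miRNAs were called lower and 0.0% higher with all libraries, 35 had an unadjusted p under 0.05, and DESeq2 called 3. Without library 3 the lower and higher shares were 1.21% and 0.862% of 580.

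The enriched CA gave a log2 fold change of -0.08 ± 0.17 (SE) for miR-187-3p (edgeR adjusted p 0.837), which was 0.04 ± 0.09 without library 3 (edgeR adjusted p 0.817), so its sign rested on that library. For miR-187-5p it was 0.13 ± 0.15 (edgeR adjusted p 0.690), or 0.17 ± 0.14 without library 3 (edgeR adjusted p 0.459). In that comparison 1.38% of 581 miRNAs were called lower and 1.2% higher, or 5.34% and 4.14% of 580 without library 3. Whether the home cage and enriched groups differed in their change with time was not tested.

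The ratio of the arms within a library does not depend on library size, apart from the 0.5 added to each count below. It was not itself used to choose the pair. Its counts are those of arms chosen for the same differences, so a small difference in the ratio is not free of that choice. Summed over libraries, miR-187-3p had 19.9 times the counts of miR-187-5p in CA and 19.4 times in DG. The log2 ratio of 3p to 5p counts, with 0.5 added to each, averaged 4.28 ± 0.22 (SD, n = 27) in CA and 4.28 ± 0.28 (SD, n = 25) in DG. The difference DG minus CA was 0.0020 ± 0.07 (SE), with a permutation p of 0.977 and 0.977 adjusted over 5 such tests. Without library 3 it was -0.02 ± 0.07, with a permutation p of 0.797. The difference between regions in the ratio was thus small beside the regional difference of 2.59 in the level, on the same log2 scale.

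Between groups the mean log2 ratio ran from 4.002 ± 0.16 (SD, n = 6) in 2wHC_DG, where the 5p arm was highest, to 4.43 ± 0.26 (SD, n = 6) in 10wHC_DG. In CA after 2 weeks the log2 ratio was 4.39 ± 0.10 (SD, n = 7) with enrichment and 4.24 ± 0.15 (SD, n = 6) in the home cage, with an exact permutation p of 0.0624 and 0.195 adjusted. In DG after 2 weeks it was 4.32 ± 0.35 (SD, n = 5) against 4.002 ± 0.16 (SD, n = 6), with an exact permutation p of 0.0779 and 0.195 adjusted. After 10 weeks the differences were -0.10 ± 0.14 (SE) in CA, with an exact permutation p of 0.504 and 0.718 adjusted. They were -0.07 ± 0.13 (SE) in DG, with an exact permutation p of 0.574 and 0.718 adjusted. Without library 3 the 10-week CA difference was -0.04 ± 0.14, with an exact permutation p of 0.779. None of the 5 tests passed the adjusted threshold of 0.05, all two-sided.

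**Figure D4:**
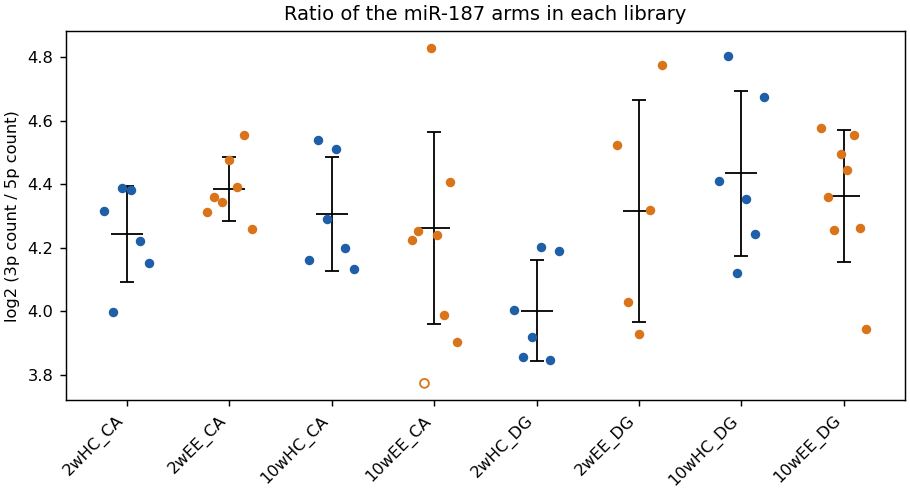
log2 ratio of miR-187-3p to miR-187-5p counts, with 0.5 added to each count, in each library by group. Blue points are home cage and orange points enriched libraries, black marks are the mean ± SD without 10wEE_CA library 3, and the open circle is that library. The lowest group mean is 2wHC_DG at 4.002 and the highest 10wHC_DG at 4.43.

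Within groups the arms varied together. With each library taken as its deviation from its group mean and labels permuted within groups, the log2 levels of the arms correlated at r = 0.56 over 26 CA libraries without library 3 (permutation p 0.00781, adjusted 0.0156). Spearman's rho was 0.50 (permutation p 0.0173, adjusted 0.0221). In DG, over 25 libraries, r was 0.45 (permutation p 0.0171, adjusted 0.0171) and rho 0.45 (permutation p 0.0221, adjusted 0.0221). Leaving out the 2 libraries farthest from the median of the 3p level gave r of 0.46 in CA and 0.36 in DG. The arms share their library's depth and composition, and this relation was chosen after seeing the data.

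Over 51 libraries, leaving out 10wEE_CA library 3, the miRNA whose log2 level ran most like miR-187-3p was miR-187-5p, with r = 0.98. Next came miR-497-5p, of the miR-15/16 seed family, with r = 0.98, and miR-181d-5p, of the miR-181 family, with r = 0.98. miR-344d-3-5p and miR-344c-3p, whose sequences are given above, each had r = 0.97. All of these are higher in DG, and the libraries fall into 2 regions, so r here mostly describes the regional difference. Their log2 fold changes of DG against CA were 1.09 for miR-497-5p, 1.11 for miR-181d-5p, 1.83 for miR-344d-3-5p and 1.37 for miR-344c-3p, all below the 2.59 of miR-187-3p. Without library 3 they were 1.09, 1.14, 1.87 and 1.41, against 2.60. In CA after 2 weeks of enrichment, the log2 fold changes of these 4 lay between -0.17 and -0.03, against -0.43 for miR-187-3p. Without library 3 they lay between -0.18 and -0.04, against -0.43.

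The opposite pattern was led by miR-300-3p with r = -0.98, miR-410-3p with r = -0.97 and miR-338-3p with r = -0.97. miR-300 and miR-410 belong to the imprinted Dlk1-Dio3 cluster, and miR-338 is known for its role in oligodendrocyte differentiation. miR-338-3p averaged 6328 CPM in CA and 2064 CPM in DG. Once group means were taken out, the most alike miRNAs were let-7b-5p with r = 0.65, let-7i-5p with r = 0.58, miR-151-5p with r = 0.57, miR-340-3p with r = 0.55 and miR-672-5p with r = 0.55. miR-187-5p then stood at rank 9 of 432 with r = 0.50. let-7b is known to restrain neural stem cell proliferation, and it shares its seed with let-7i-5p, as printed above. These r are descriptions over libraries that share depth and composition. In CA after 2 weeks of enrichment the log2 fold changes of these 5 lay between -0.07 and -0.0013, or between -0.07 and -0.0081 without library 3.

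miR-187 was then set beside the 20 other miRNAs with the largest excess in DG at a mean of at least 10 CPM, a list chosen after seeing the data and given as a description. A miRNA could reach that mean through its DG level alone. In CA, miR-296-3p, miR-6240 and miR-6953-3p averaged only 6.80, 6.90 and 7.06 CPM, so their fold changes there rest on low levels. In CA after 2 weeks, without library 3, their median log2 fold change with enrichment was -0.03 and 12 of 20 were negative. Only 1 of the 20 was lower than miR-187-3p, miR-92b-5p at -0.75, which averaged 4.27 CPM in CA and is named after its values were seen. In CA after 10 weeks, again without library 3, their median was -0.06, 12 of 20 were negative and 0 of 20 were lower than miR-187-3p. In DG the median was -0.06 after 2 weeks, with 4 of 20 lower than miR-187-3p. After 10 weeks in DG it was -0.0033, with 7 of 20 lower. The median over all miRNAs tested lay between -0.0058 and 0.0038 in these comparisons. The values of miR-187-3p thus lay near the low end of the dentate-high miRNAs in CA and inside their range in DG. The pair was chosen for being dentate-high and lower after enrichment, so nothing is read from its place among them.

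**Figure D5:**
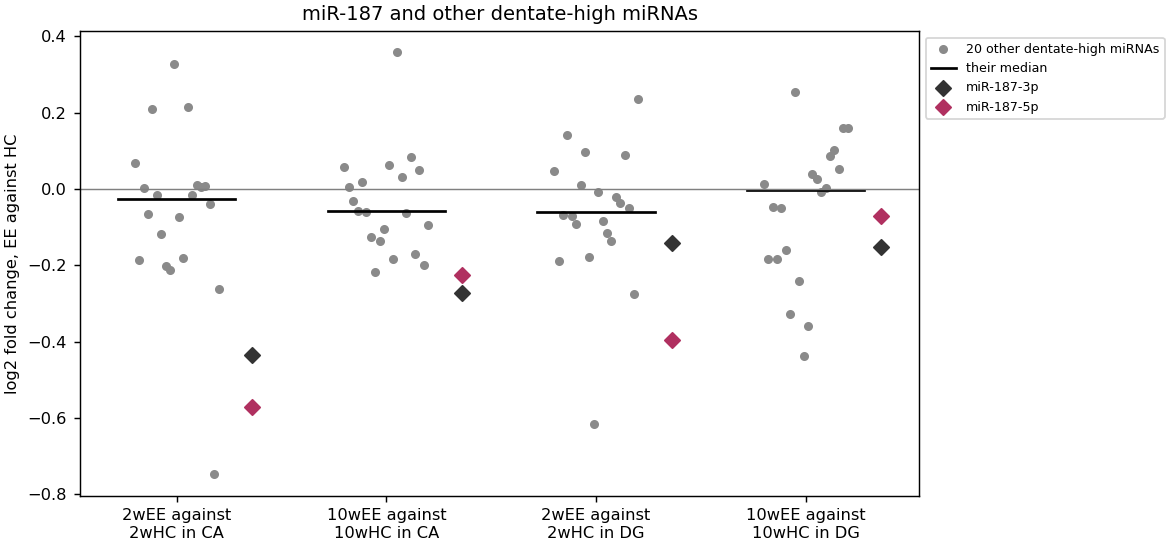
edgeR log2 fold change of enriched against home cage for miR-187-3p (dark diamonds), miR-187-5p (red diamonds) and the 20 other miRNAs with the largest excess in DG (grey points, median as a black line), by time and region. CA values leave out 10wEE_CA library 3. Some grey points in CA are miRNAs with a mean under 10 CPM there. In CA both arms lie near or below the low end of the grey points, and in DG the 3p arm lies inside them. The pair was chosen for being lower after enrichment, so its place is a description.

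The adult neurogenesis list, of which 22 members are in the files and 21 were tested, gives the wider setting of dentate miRNAs. In DG against CA, 8 of 21 members were called higher and 9 lower (edgeR adjusted p under 0.05), beside 36.1% and 41.7% of all miRNAs tested. Without library 3 the counts were 9 and 8, beside 38.9% and 40.6%. In the home cage DG at 10 against 2 weeks, 3 of 21 were called higher and 1 lower, beside 7.62% and 8.38% of all miRNAs tested. The higher ones were miR-137-3p, a regulator of neuronal maturation, with a log2 fold change of 0.41 ± 0.09 (SE, edgeR adjusted p 0.00620), let-7b-5p with 0.38 ± 0.10 (edgeR adjusted p 0.0153) and miR-134-5p, a regulator of dendritic spines, with 0.39 ± 0.13 (edgeR adjusted p 0.0419). The lower one was miR-125b-5p with -0.33 ± 0.09 (edgeR adjusted p 0.0197). The median of the list was 0.13, against 0.0012 over all miRNAs tested, while miR-187-5p was at -0.42.

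With enrichment, 2 of 21 members of the neurogenesis list were called higher in DG after 2 weeks, beside 0.571% of all miRNAs tested. They were miR-132-3p with 0.56 ± 0.10 (edgeR adjusted p 0.00368) and miR-212-3p with 0.63 ± 0.13 (edgeR adjusted p 0.00492). These are known as activity-regulated miRNAs that promote dendrite growth. In CA, 0 of 21 were called in either direction at 2 or at 10 weeks, beside 0.0% of all miRNAs. Without library 3, miR-132-3p and miR-212-3p were called higher at both times, beside 1.21% of all miRNAs at 2 weeks and 0.345% at 10 weeks. None of the list was called lower with enrichment in either region. After 10 weeks in DG 0 of 21 were called, beside 0.19% of all miRNAs in each direction. Between the enriched groups, 1 member was called higher and 1 lower in either region, beside 4.57% and 5.33% of all miRNAs in DG and 1.2% and 1.38% in CA. In CA the counts were 2 and 3 without library 3, beside 4.14% and 5.34%.

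The inflammation-regulating list was counted because miR-187 is known from monocytes. Of 9 members in the files, 8 were tested in CA and 7 in DG. With all libraries, 0 were called with enrichment in either region at either time, where at most 0.571% of all miRNAs were called in a direction. Without library 3, 1 of 8 was called higher in CA after 2 weeks, beside 1.21% of all miRNAs. It was miR-21a-5p, a miRNA raised in reactive glia, with a log2 fold change of 0.25 ± 0.05 (edgeR adjusted p 0.00165). The median of the list in that comparison was -0.05, against -0.0047 over all miRNAs tested. In DG against CA, 1 of 8 members was called higher and 3 lower, beside 36.1% and 41.7% of all miRNAs, or 3 and 2 without library 3, beside 38.9% and 40.6%. In the home cage DG at 10 against 2 weeks 1 of 7 was called lower, beside 8.38% of all miRNAs. It was miR-125b-5p, as in the list above. The microglia and leukocyte markers (6 of 6 in the files, 0 at 0) summed to 3499.7 CPM in 2wHC_CA (3368 to 3699) and 3267 CPM in 2wEE_CA (2954 to 3517), with overlapping ranges.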

How the data were processed

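Small RNA of dissected CA and DG was sequenced in 52 libraries, grouped by the sample titles. The authors deposited raw counts of reads for each mature miRNA. According to the submitters' processing notes, reads were handled with CASAVA 1.8.2, cutadapt, STAR and HTSeq on mm10. The miRNA annotation behind the counts is not given in the sources used here. Lines that name no miRNA, the last 5, were left out throughout. Among them are reads that matched several places, 59.3 to 71.0% of a library's reads, so miRNAs made from several hairpins can be undercounted. CPM are a library's counts scaled to its total miRNA count, which ran from 480792 to 6706855. None of the 147 within-group pairs was identical.

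Contrasts were fitted with edgeR 4.0.16 in R 4.3.3 (quasi-likelihood F test, two-sided, TMM scaling, filterByExpr by group, threshold of 0.05 after Benjamini-Hochberg adjustment over all miRNAs of a contrast). CA contrasts used the 27 CA libraries, DG contrasts the 25 DG libraries and the regional contrast all 52, with 1 mean per group. The scripts were tested on simulated data. Arm ratios were compared by permutation of libraries with scipy 1.17.1, in all relabelings or 100000 resamples. DESeq2 1.42.0, other scalings, other filters and left-out libraries were the alternatives.

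miR-187 and the lists of miRNAs were chosen with earlier results of these data known. Named miRNAs were the members, the 5 most like miR-187-3p by r over the libraries, the 5 most like it within groups, the 3 most unlike it, and up to 4 members of each list, those with the smallest p. The lists of the 20 most dentate-high miRNAs and the relation of the arms within groups were added after the values were seen. Gene positions are from GENCODE M21 on GRCm38, and mature sequences from RefSeq were matched for the miRNAs printed.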

Additional observations from a re-analysis of the deposited data

Results flagged for a closer look

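Of 24 sets of group values checked for a library far from the others (levels of both arms and their ratio in each group), 2 stood out, and chance alone gives about 1 in 20. Both were 10wEE_CA library 3. It held 41.6 CPM of miR-187-3p, against 156 CPM for the next lowest library of its group, and 2.08 CPM of miR-187-5p, against 6.62 CPM for the next. This library also had the lowest total count, 480792, and 24.5% of its reads fell in miRNAs, against 28.8 to 36.8% in the other CA libraries. Its part in the group values is given beside each of them.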

How the results depend on the processing

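The tested result for miR-187-5p in the home cage dentate gyrus kept its direction under each alternative run, with log2 fold changes of -0.41 on DESeq2 size factors, -0.41 without the filter and -0.42 with only the groups compared, where it did not pass the threshold. It passed with DESeq2, with a mean of at least 10 CPM and with the replicate block. Over single omissions it ran from -0.50 to -0.36.

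The replicate number is not stated to mark a shared animal or day. Deviations of same-numbered DG and CA libraries correlated at r over 0.1 in 5 of 6 pairs of 2wHC and 0 of 5 of 2wEE. The same held for 2 of 6 pairs of 10wHC and 2 of 7 of 10wEE. With no stated link, the numbers were taken as names only. With the number as a replicate block, the log2 fold change of miR-187-3p between 10wEE_DG and 2wEE_DG was 0.019 (0.026 without the filter), the 10-week DG difference in the arm ratio was 0.014, and the number of miRNAs called after 10 weeks of enrichment in DG was 0. With 0.1 added to each arm in place of 0.5, the arm ratio difference of DG against CA was -0.022. These log2 fold changes and arm ratio differences differ in sign from the values of the report, which are near 0. The number of miRNAs called was 2 in the main fit. The cause of these changes was not tested.

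Counts of called miRNAs moved as follows, and the cause was not tested. For home cage DG between the times, 84 became 51 without the filter and 55 with only the groups compared. For home cage CA, 0 became 3 with DESeq2, 2 without the filter and 8 with only the groups compared. For enriched CA between the times, 15 became 35 with DESeq2, 6 without the filter and 0 with only the groups compared. For enrichment in CA after 2 weeks, 0 became 1 with DESeq2 and 6 with only the groups compared. In DG after 2 weeks, 3 became 1 with only the groups compared. In DG after 10 weeks, 2 became 1 on DESeq2 size factors and 0 with a mean of at least 10 CPM or only the groups compared.

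Leaving out 1 library at a time gave ranges for each result. miR-187-3p in home cage DG ran from -0.080 to 0.10, in enriched DG from -0.062 to 0.052 and in enriched CA from -0.13 to 0.038, and miR-187-5p in enriched DG from -0.19 to 0.0039. Called miRNAs ran from 48 to 91 in home cage DG, 0 to 12 in home cage CA, 14 to 74 in enriched DG and 4 to 55 in enriched CA between the times. With enrichment they ran from 0 to 9 in CA after 2 weeks, 0 to 3 in CA after 10 weeks and 0 to 2 in DG after 10 weeks. The highest CA counts, 12, 55, 9 and 3, were those without 10wEE_CA library 3. The lowest in home cage DG, 48, was without 2wHC_DG library 4. The lowest in enriched DG, 14, was without 2wEE_DG library 5, and in enriched CA, 4, without 10wEE_CA library 4. The arm ratio difference ran from -0.020 to 0.023 for DG against CA and from -0.14 to 0.0016 in DG after 10 weeks.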
